A study of Mus musculus with 4 samples.

Results

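Transcripts of serine synthesis, one-carbon metabolism and the ATF4 stress response were followed through 4 mouse liver libraries by RNA sequencing. The 36 genes were chosen by symbol, as enzymes, regulators, amino acid transporters and tRNA synthetases of these routes, and all 36 were found among the 25793 genes listed. Tumours 1 and 2 are labelled as liver tumours from β2SP+/-; SMAD3+/- mice, which would carry 1 intact copy each of the genes for the adaptor beta-2 spectrin and for the transcription factor SMAD3. The other 2 libraries are labelled as a normal liver of the same double heterozygous genotype and a normal liver of a wild type mouse. No age, sex or treatment is given in the labels, and whether the tumours are from separate animals is not stated, so p-values measure only the spread between these samples, which may be technical.

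Cells make serine from a glycolytic intermediate in 3 steps, by PHGDH, PSAT1 and PSPH. The SHMT enzymes then pass a carbon of serine to folate, and parallel sets of folate enzymes in the cytosol and the mitochondria carry it towards purines, thymidylate and formate. ATF4 is a transcription factor whose translation increases when eIF2 is phosphorylated, for instance when amino acids run short, and its known targets include genes of serine, asparagine and proline synthesis, amino acid transporters and cytosolic tRNA synthetases. In healthy liver the hepatocytes break down much of the serine and glycine that arrives from the gut.

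ATF4 binds composite elements known as CAREs, whose core can be written TGATGNAA, and these sequences are shown because they mark which of the genes hold those letters beside their start. Promoters, taken from RefSeq as 250 bases before to 50 bases after each annotated start (GRCm38.p6), were on hand for 28 of the 36 genes. In 11 of the 28 (39.3%) the motif occurred on either strand, against 1219 of all 27025 genes with a promoter (4.51%). Of the 12 matches, 8 lay before the start and 4 after it, 3 to 193 bases away, and 8 of the 12 had C at the free position when read on the motif strand. A match is a description of these letters and not evidence of binding. Each match is given below in capitals with 20 bases on either side, 5′ to 3′ on the strand of the gene, so that those written as TTNCATCA hold the motif on the opposite strand.
Asns (chr6:7693205-7693252, minus strand): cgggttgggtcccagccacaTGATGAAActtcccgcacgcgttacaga
Pycr1 (chr11:120643824-120643871, minus strand): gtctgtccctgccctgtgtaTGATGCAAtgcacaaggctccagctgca
Chac1 (chr2:119351029-119351076, plus strand): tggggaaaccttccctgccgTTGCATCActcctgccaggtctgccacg
Nupr1 (chr7:126625553-126625600, minus strand): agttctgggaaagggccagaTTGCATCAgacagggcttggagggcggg
Trib3 (chr2:152344019-152344066, minus strand): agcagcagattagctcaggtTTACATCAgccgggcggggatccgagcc
Slc1a4 (chr11:20332690-20332737, minus strand): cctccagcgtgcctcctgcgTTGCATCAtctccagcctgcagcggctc
Gars (chr6:55037951-55037998, plus strand): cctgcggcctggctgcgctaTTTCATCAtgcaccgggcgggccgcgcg
Tars (chr15:11399646-11399693, minus strand): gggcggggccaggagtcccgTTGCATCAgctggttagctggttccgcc
Iars (chr13:49682117-49682164, plus strand): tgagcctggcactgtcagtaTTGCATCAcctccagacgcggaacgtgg
Yars (chr4:129189886-129189933, plus strand): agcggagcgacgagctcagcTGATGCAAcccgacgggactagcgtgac
Aars (chr8:111033710-111033757, plus strand): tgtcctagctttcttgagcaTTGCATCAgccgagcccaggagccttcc
Aars (chr8:111033831-111033878, plus strand): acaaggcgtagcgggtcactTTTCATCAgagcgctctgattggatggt

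The whole promoter window of the asparagine synthetase gene Asns is given as well, since Asns was the only gene with a match among the 6 genes that rose in the tumours and had a promoter on hand. Its match, in capitals, starts 23 bases before the annotated start.
Asns promoter (chr6:7693160-7693459, minus strand): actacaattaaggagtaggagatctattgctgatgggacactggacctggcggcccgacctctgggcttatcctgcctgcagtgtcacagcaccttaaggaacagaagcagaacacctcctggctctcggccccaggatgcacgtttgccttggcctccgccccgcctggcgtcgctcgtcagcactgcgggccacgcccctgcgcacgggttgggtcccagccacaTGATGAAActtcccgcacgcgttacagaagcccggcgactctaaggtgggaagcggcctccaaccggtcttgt

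Gene counts were 11049931 and 13295216 in tumours 1 and 2, against 15950426 and 18448621 in the normal tables labelled double heterozygous and wild type. Of the targeted genes, Spnb2 (beta-2 spectrin) was at 1503 and 1440 CPM (counts scaled to a common library total) in tumours 1 and 2, 211 CPM in the normal liver table labelled double heterozygous and 192 CPM in that labelled wild type. Smad3 was at 409 and 164 CPM in the tumours, 26.7 CPM in the table labelled double heterozygous and 24.9 CPM in that labelled wild type. Neither gene was lower in a library labelled heterozygous than in the one labelled wild type, so these counts do not show the loss of a copy, and genotypes are given as labelled. Of 2632 genes averaging 1 to 5 counts in normal liver, the normal tables had equal counts in 56.8%, where separate libraries of these depths would give 29.3%. At low counts they differed by less than sampling noise, and they were counted as 1 sample, their rounded mean, in every test against normal liver. The tissue label was checked against markers, summed in CPM. The 8 hepatocyte markers, with albumin, summed to 217 to 225 CPM in the tumours and to 94450 to 99030 CPM in the normal tables, and none was at 0. Hnf4a was the largest of them in the tumours, with 2323 and 1991 counts, against 11330 and 12038 in the normal tables. Alb had 123 and 807 counts in the tumours, against 1083426 and 1194814. Every other gene of this list had at most 48 counts in a tumour. The 6 bile duct markers summed to 2963 to 3323 CPM in the tumours and 21.7 to 23.8 CPM in the normal tables. The largest was Spp1, with 22654 and 29529 counts in tumours 1 and 2, against 254 and 266 in the normal tables. Krt7, Krt19 and Sox9 were also higher in both tumours. Epcam had 356 and 4 counts in tumours 1 and 2, against 46 and 48 in the normal tables. Cftr had 466 and 7, against 15 and 16, so both were lower in tumour 2 than in normal liver. Endothelial markers, 6 genes, summed to 0.724 to 1.81 CPM in the tumours (Clec4g at 0 in both) and 134 to 136 CPM in the normal tables. For 6 macrophage markers the sums were 6.69 to 26.1 CPM in the tumours and 77.3 to 81.7 CPM in the normal tables. The Kupffer cell genes Clec4f and Cd5l were at 0 in both tumours. Csf1r had 44 and 23 counts in tumours 1 and 2, against 342 and 375 in the normal tables. Emr1 had 93 and 0, against 111 and 119, and Marco 121 and 1, against 12 and 18. Cd68 had 30 and 65, against 21 and 23, so the list did not go in a single direction. Red cell markers, 3 genes, came to at most 0.0905 CPM in a tumour and to 38.2 to 48.4 CPM in the normal tables. The 5 markers of dividing cells summed to 138 and 2730 CPM in tumours 1 and 2, and to 3.79 to 3.89 CPM in the normal tables. The submitters' short descriptions attach the word Tcell to both tumours, but 6 of 8 T cell markers, Cd3e, Cd3d, Cd3g, Cd4, Cd8a and Cd2, were at 0 in both tumours, and the list summed to 0.815 to 1.66 CPM there and 3.32 to 3.90 CPM in normal liver. In bulk RNA, fewer cells of a type and less RNA per cell cannot be told apart, and the part of these marker differences in the results below was not tested.

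Against normal liver, the tumours held far more transcript of the first serine synthesis steps, of the mitochondrial folate enzyme MTHFD2, of the first proline synthesis enzyme, of asparagine synthetase and of 2 amino acid transporters. Of the 36 genes, 7 rose (Phgdh, Psat1, Mthfd2, Aldh18a1, Asns, Slc7a1 and Slc7a5), against 2.23% of the 14468 genes tested, and 0 fell, against 5.19%, by the quasi-likelihood test of edgeR at a Benjamini-Hochberg adjusted p under 0.05. All 36 passed the filter on low counts. Without adjustment, 16 had p under 0.05 with higher levels in the tumours, against 12.5% of all genes tested, and 2, Shmt1 and Aldh1l1, with lower levels, against 15.5%. DESeq2 found 16 genes to rise, against 12.4% of the 13938 genes to which it gave an adjusted p, and 1, Aldh1l1, to fall, against 12.3%. Both tumours lay above both normal tables for 29 of the 36 genes, against 41.1% of the genes tested, and below both for 5, against 37.5%. The median log2 fold change of the 36 was 1.59, beside 0.19 for all genes tested. The fit has 1 residual degree of freedom, from the tumours, so that a gene that misses the threshold is not shown to be unaltered.

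**Figure D1:**
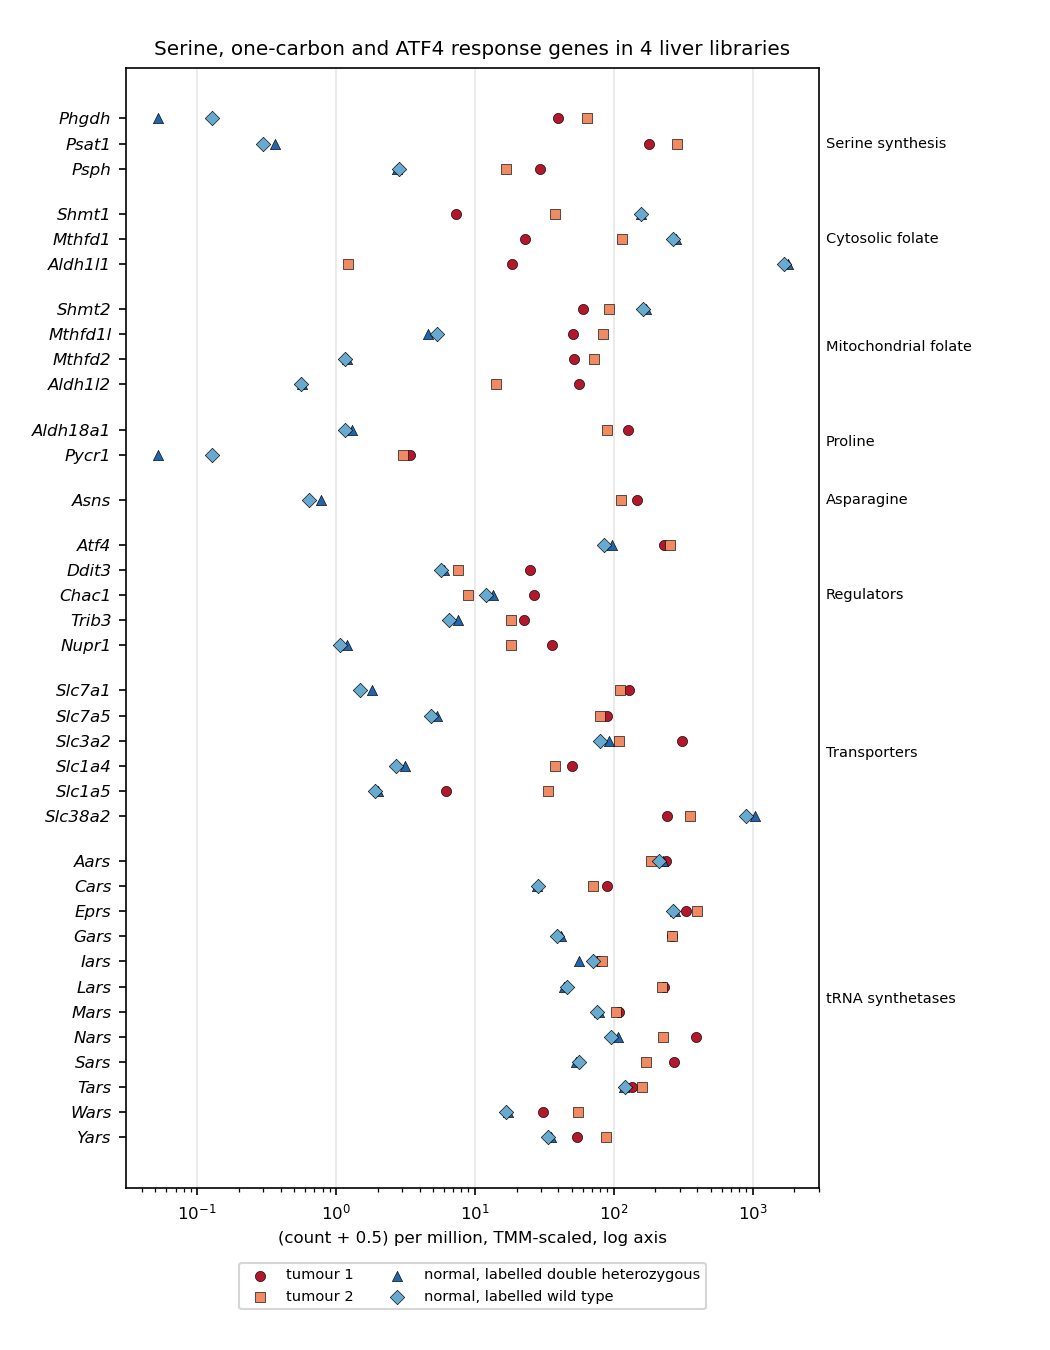
Level of each of the 36 genes in each library, as counts plus 0.5 in CPM on a log axis, scaled by the trimmed mean of M values (TMM) over the 4 tables. Both tumours (circles and squares) lie above both normal tables (triangles and diamonds) for 29 genes, against 41.1% of all genes tested. They lie below both normal tables for 5, against 37.5%. The widest gaps are those of Phgdh, Psat1, Asns and, in the other direction, Aldh1l1.

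The serine route was led by its first enzymes. Phgdh, which encodes the dehydrogenase that commits the glycolytic intermediate to serine, had 695 and 1403 counts in tumours 1 and 2, against 0 counts in the normal table with the double heterozygous label and 1 count in that with the wild type label. The tumours stood at 61.1 ± 20.1 CPM (SD, n = 2, TMM-scaled as are all CPM values from here on). Phgdh was nearly absent from both normal tables and present in both tumours. The tumours together were at least 172-fold higher than the table without a count, taken at a floor of 3 counts, and 627-fold higher than the table with 1 count (exact 95% counting interval 112 to 24764). The edgeR adjusted p was 0.0252. Of the 31-base words of Phgdh, 58.2% also occur in another annotated gene, so its counts are uncertain.

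Psat1, the aminotransferase of the middle step, had 3158 and 6238 counts in the tumours, against 3 counts in each normal table. In CPM this was 213 and 335 in the tumours, against 0.329 in normal liver. The rise was 771-fold over the table labelled double heterozygous (exact 95% counting interval 264 to 3741) and 936-fold over that labelled wild type (320 to 4537), with an edgeR adjusted p of 0.0244. Psat1 shares only 2.06% of its words with other genes, and its level per length in the tumours, 50.01 and 78.7 CPM per kilobase of exon, was above that of Phgdh (18.8 and 30.3) and Psph (8.06 and 4.51). Psph, the phosphatase of the last step, had 518 and 364 counts in the tumours, against 26 and 33 in the normal tables. Both tumours were above both normal tables, but the log2 fold change of 3.05 (SE 0.84) did not pass (edgeR adjusted p = 0.113), and Psph has 12.1% shared words.

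Genes around the breakdown of serine and glycine lay on the other side. The list also holds genes of enzymes that form glycine, such as Agxt and Agxt2, so it is not one of breakdown alone. Of the 12 genes listed, all 12 were below both normal tables in both tumours, against 37.5% of all genes tested. Without scaling 11 of 12 were, against 18.7%. Of the 12, 0 rose, against 2.23% of all genes tested, and 7 fell, against 5.19%. Their median log2 fold change was -6.38. Among those that fell, the serine dehydratase gene Sds had 0 and 1 counts in the tumours, against 2712 and 3522 in the normal tables. The glycine methyltransferase gene Gnmt had 2 and 3 counts in the tumours, against 12133 and 14417 in the normal tables. For Dmgdh, which releases folate-bound carbon from dimethylglycine, the counts were 1 and 2 in the tumours, against 11229 and 11894 in the normal tables. All 3 are enzymes typical of hepatocytes. Agxt and Agxt2, glyoxylate aminotransferases, were also at 3 counts or fewer in each tumour, and the edgeR adjusted p of these 5 genes lay between 0.0182 and 0.0186. Sds has 21.7% shared words. Gldc, of the glycine cleavage system, had 586 and 40 counts in the tumours, against 1968 and 2293 in the normal tables, and did not pass (edgeR adjusted p = 0.234). It was chosen after its values were seen, as were Tyms, Slc7a2, Cth and Fgf21 further on.

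Of the 7 folate enzyme genes, the mitochondrial Mthfd2 rose, against 2.23% of all genes tested, and none fell, against 5.19%. Mthfd2, the mitochondrial dehydrogenase and cyclohydrolase that is low in most adult tissues, had 909 and 1577 counts in the tumours, against 11 and 13 in the normal tables. The tumours were at 72.9 ± 16.5 CPM (SD, n = 2) and normal liver at 1.32 CPM, a log2 fold change of 5.78 (SE 0.81, edgeR adjusted p = 0.0345). Mthfd1l, the mitochondrial formate-releasing synthetase, had 884 and 1816 counts in the tumours, against 44 and 62 in the normal tables (log2 fold change 3.75, SE 0.76, edgeR adjusted p = 0.0636). Aldh1l2, which oxidises the mitochondrial formyl-folate, had 977 and 306 counts in the tumours, against 5 and 6 in the normal tables (5.95, SE 1.43, edgeR adjusted p = 0.0875). The tumours were well above the normal tables for both genes, but neither passed. Shmt2, the mitochondrial serine hydroxymethyltransferase, had 1054 and 2001 counts in the tumours, against 1651 and 1896 in the normal tables. Its log2 fold change was -1.12 (SE 0.57, edgeR adjusted p = 0.272) and turned to 0.25 without scaling.

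The 3 cytosolic members were lower in both tumours than in both normal tables, against 37.5% of all genes tested, and none passed. Aldh1l1, the cytosolic formyl-folate dehydrogenase and an abundant liver transcript, had 322 and 26 counts in the tumours, against 17234 and 19665 in the normal tables. In CPM it was at 21.7 and 1.40 in the tumours and 2022 in normal liver, with a log2 fold change of -7.45 (SE 1.77, edgeR adjusted p = 0.0865). The tumours differed so much from each other here that a 175-fold mean difference missed the threshold. Shmt1, the cytosolic serine hydroxymethyltransferase, had 127 and 823 counts in the tumours, against 1527 and 1847 in the normal tables (-2.81, SE 1.04, edgeR adjusted p = 0.178). Mthfd1, the trifunctional cytosolic enzyme, had 402 and 2494 counts in the tumours, against 2726 and 3136 in the normal tables (-1.997, SE 1.02, edgeR adjusted p = 0.278). Without scaling, 2 of these 3 genes still lay below both normal tables in both tumours, against 18.7% of all genes tested.

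The paired enzymes of the compartments were also set against each other per length within a library, which no scaling between libraries touches. The Aldh1l2 level was 1.82 and 6.96 times that of Aldh1l1 in tumours 1 and 2, whereas in the normal tables Aldh1l1 was 5206 and 5027 times as high as Aldh1l2. Mthfd2 was at 2.88 and 0.806 times Mthfd1 in the tumours, and Mthfd1 was at 186 and 182 times Mthfd2 in the normal tables. The ratio of Shmt2 to Shmt1 was 10.3 and 3.04 in the tumours, against 1.35 and 1.28 in the normal tables. All 3 ratios were higher in each tumour than in either normal table. The order of the pair turned round in both tumours for the formyl-folate dehydrogenases, while Mthfd2 stayed below Mthfd1 in tumour 2 and Shmt2 was above Shmt1 in every library. With 2 tumours and 1 normal sample these ratios have no test. Aldh1l1 and Aldh1l2 have 11.6% and 13.0% shared words and overlap antisense genes over 11% and 14.1% of their exons, and whether counting used strand is not given in the sources used here.

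**Figure D2:**
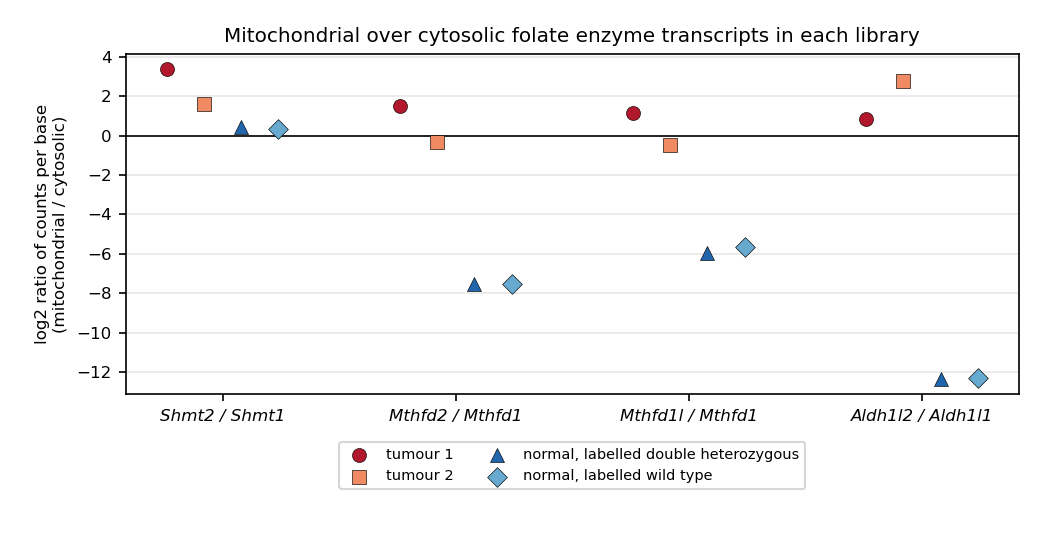
Log2 ratio of mitochondrial to cytosolic folate enzyme transcripts within each library, as counts plus 0.5 per base of exon, with the tumours left of the normal tables in each set. The ratios are higher in both tumours than in both normal tables for every pair shown, from 3.37 and 1.60 against 0.43 and 0.36 for Shmt2 over Shmt1 to 0.87 and 2.80 against -12.35 and -12.30 for Aldh1l2 over Aldh1l1.

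In the rest of the folate cycle, 14 genes listed, 0 rose, against 2.23% of all genes tested, and Ftcd fell, against 5.19%. Ftcd, which feeds carbon from histidine breakdown into folate, had 0 and 3 counts in the tumours, against 4629 and 5398 in the normal tables (edgeR adjusted p = 0.022). The median log2 fold change of this list was -0.15, and 0.06 under upper quartile scaling and 1.24 without scaling. Tyms, which makes thymidylate with a folate carbon, had 157 and 1004 counts in the tumours, against 27 and 45 in the normal tables (edgeR adjusted p = 0.223). Tumour 2 was far above tumour 1 for this gene.

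In proline and asparagine synthesis, Aldh18a1 and Asns rose and Pycr1 did not pass. Aldh18a1, which encodes the first enzyme of proline synthesis from glutamate, had 2207 and 1956 counts in the tumours, against 12 and 13 in the normal tables. This was 127 ± 30.9 CPM (SD, n = 2) in the tumours and 1.32 CPM in normal liver, a log2 fold change of 6.58 (SE 0.83, edgeR adjusted p = 0.0287). Pycr1, the mitochondrial reductase of the last step, was scarce even in the tumours, with 59 and 65 counts there, against 0 and 1 in the normal tables. Its edgeR adjusted p was 0.111, and the tumours together were 37.0-fold higher than the table with 1 count (exact 95% counting interval 6.53 to 1475). The motif lies 103 bases before the Pycr1 start, in the window printed above.

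Asns, which makes asparagine from aspartate and glutamine and is a textbook ATF4 target, had 2565 and 2429 counts in the tumours, against 7 in each normal table. The tumours were at 173 and 130 CPM and normal liver at 0.767 CPM. The groups lay far apart and the tumours close together, with a log2 fold change of 7.61 (SE 0.86, edgeR adjusted p = 0.0253). Among 6 other proline genes 0 rose, against 2.23% of all genes tested, and 2 fell, against 5.19%. Those that fell were the breakdown genes Prodh2 and Aldh4a1. Prodh2 had 1 and 6 counts in the tumours, against 2843 and 3599 in the normal tables. Aldh4a1 had 485 and 455, against 7252 and 7722. The edgeR adjusted p was 0.0205 for Prodh2 and 0.0295 for Aldh4a1, and 32.8% of the words of Aldh4a1 are shared.

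The regulators had smaller fold changes than most of the enzymes, and none of the 5 passed by edgeR, with Nupr1 alone under an unadjusted p of 0.05 and alone called by DESeq2. Atf4 itself had 4048 and 5519 counts in the tumours, against 936 and 990 in the normal tables. In CPM this was 273 and 296 in the tumours and 106 in normal liver, and the log2 fold change of 1.43 (SE 0.60) did not pass (edgeR adjusted p = 0.213). Both tumours were above both normal tables, and per length Atf4 was the most abundant of the 36 genes in both tumours, at 116 and 126 CPM per kilobase. Its activity is set largely by translation, which these data do not measure.

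Nupr1, a small stress-induced nuclear protein gene, had 628 and 394 counts in the tumours, against 11 and 12 in the normal tables (log2 fold change 4.58, SE 0.96, edgeR adjusted p = 0.069). Trib3, a pseudokinase gene, had 395 and 394 counts in the tumours, against 73 and 76 in the normal tables (1.56, SE 0.69, edgeR adjusted p = 0.23). Ddit3, which encodes the stress factor CHOP, had 434 and 164 counts in the tumours, against 57 and 66 in the normal tables (1.48, SE 1.04, edgeR adjusted p = 0.403). For these 3 genes both tumours lay above both normal tables. Chac1, which encodes a glutathione-degrading enzyme, had 464 and 193 counts in the tumours, against 130 and 141 in the normal tables. After scaling tumour 1 was above and tumour 2 below normal liver, at 31.3 and 10.4 CPM against 14.9 CPM (0.48, SE 0.92, edgeR adjusted p = 0.76). The promoters of Nupr1, Trib3 and Chac1 each hold the motif.

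Of the 6 transporters, Slc7a1 and Slc7a5 rose, against 2.23% of all genes tested, and 0 fell, against 5.19%. Slc7a1, the cationic amino acid transporter of most tissues other than liver, had 2250 and 2410 counts in the tumours, against 17 in each normal table. The tumours were at 140 ± 15.7 CPM (SD, n = 2) and normal liver at 1.86 CPM (log2 fold change 6.23, SE 0.76, edgeR adjusted p = 0.0278). Slc7a5, the light chain of the leucine transporter LAT1, had 1565 and 1717 counts in the tumours, against 51 and 56 in the normal tables (16.7-fold, log2 fold change 4.06, SE 0.67, edgeR adjusted p = 0.046). The tumours agreed closely on both genes.

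Slc3a2, the heavy chain that carries LAT1 to the membrane, had 5386 and 2373 counts in the tumours, against 895 and 936 in the normal tables (log2 fold change 1.29, SE 0.88, edgeR adjusted p = 0.39). The neutral amino acid transporter Slc1a4 had 877 and 825 counts in the tumours, against 30 and 31 in the normal tables. Its log2 fold change of 3.97 (SE 0.74) missed the threshold at edgeR adjusted p = 0.0555. Slc1a5, the glutamine transporter, had 108 and 733 counts in the tumours, against 19 and 22 in the normal tables, and did not pass (edgeR adjusted p = 0.209). Slc38a2, the amino acid transporter SNAT2, was the transporter with lower levels in both tumours, with 4240 and 7725 counts there, against 10069 and 10533 in the normal tables (-1.69, SE 0.66, edgeR adjusted p = 0.19), and without scaling the groups overlapped.

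Other amino acid transporters went in both directions. Of 12 listed, 11 could be tested. Slc7a6 rose, against 2.23% of all genes tested, and 3 fell, against 5.19%. Slc7a6, a cationic and neutral amino acid exchanger, had 1105 and 1245 counts in the tumours, against 5 and 6 in the normal tables (log2 fold change 6.73, SE 0.81, edgeR adjusted p = 0.0277). Slc38a3, a glutamine transporter gene of liver, had 9 and 5 counts in the tumours, against 40506 and 44798 in the normal tables (edgeR adjusted p = 0.0186). Slc38a4, another liver transporter gene, had 7 and 16 counts in the tumours, against 34221 and 37929 in the normal tables (edgeR adjusted p = 0.0182). The glycine transporter gene Slc6a9, with 28.8% shared words, fell by 3.02 on the log2 scale (edgeR adjusted p = 0.0486). Upper quartile scaling took it past the threshold (adjusted p = 0.0543), as did leaving out scaling (0.11). Slc7a2, the liver counterpart of Slc7a1, had 65 and 1888 counts in the tumours, against 36545 and 39067 in the normal tables, and did not pass (edgeR adjusted p = 0.13).

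**Figure D3:**
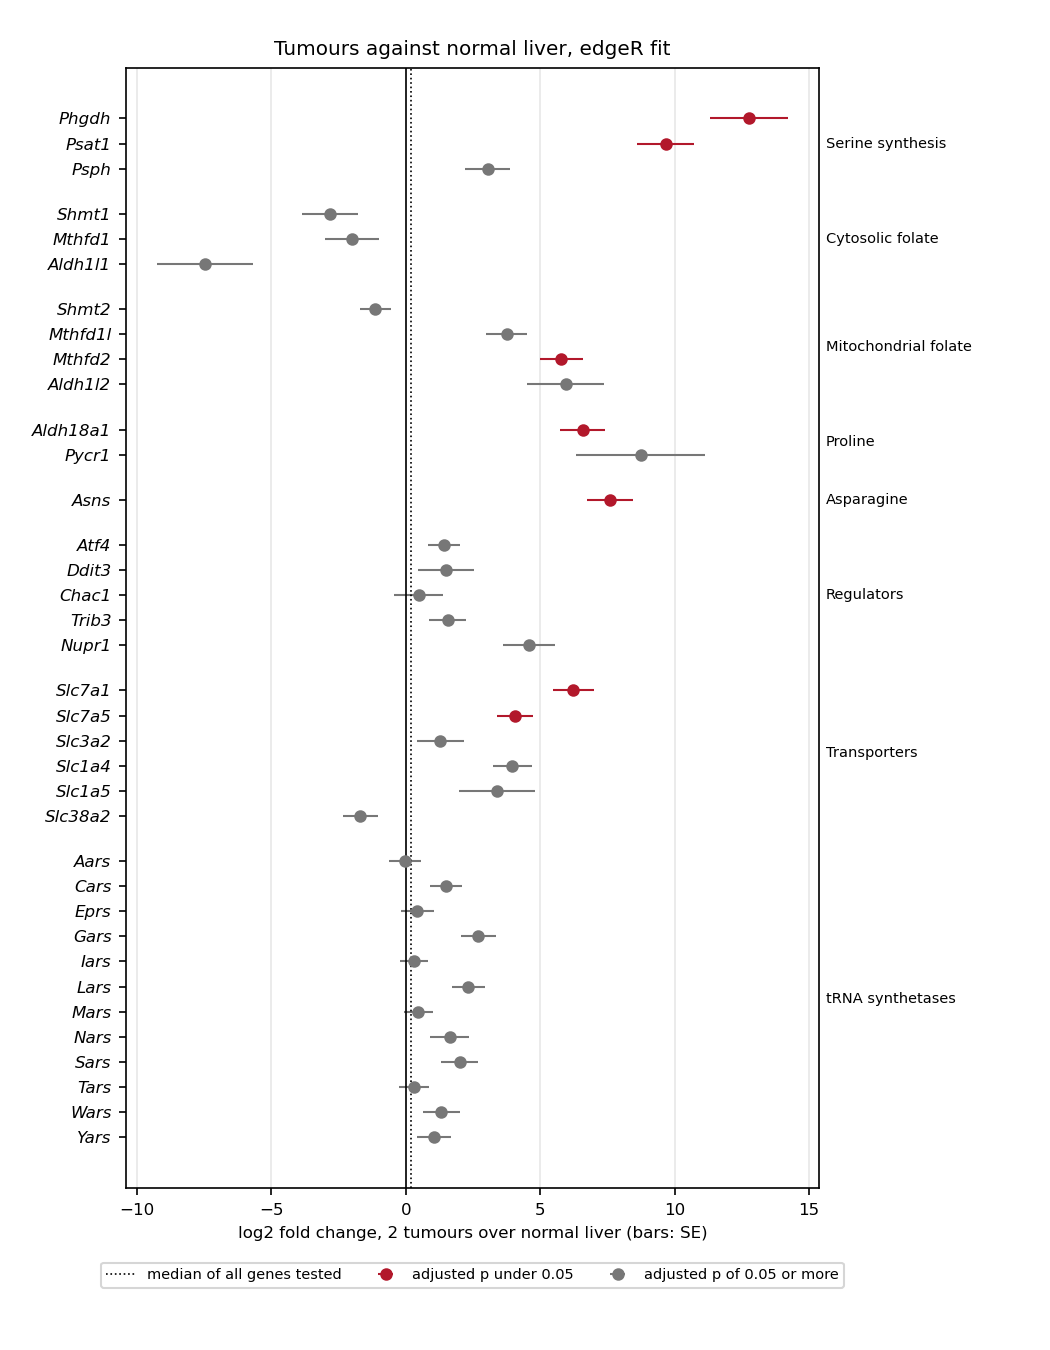
Log2 fold change of each of the 36 genes, 2 tumours over normal liver, with its standard error (SE) as a bar and genes at an edgeR adjusted p under 0.05 in red. The 7 red points run from 4.06 for Slc7a5 to 12.76 for Phgdh. For Phgdh the normal mean of 0 and 1 counts was rounded to 0, so its fitted value depends on the prior count. Over the table labelled wild type alone, which has 1 count, it was 9.11.

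Among the 12 tRNA synthetase genes fold changes were modest, and none passed by edgeR. Gars, Lars and Sars had an unadjusted p under 0.05, all with higher levels in the tumours, and DESeq2 called Gars and Lars. Both tumours were above both normal tables for 11 of the 12, against 41.1% of all genes tested, the exception being the alanine enzyme Aars. Without scaling all 12 were above, against 66.8%. The median log2 fold change was 1.19, from -0.03 for Aars to 2.71 for Gars. Gars, which charges glycine, had 4567 and 5733 counts in the tumours, against 403 and 457 in the normal tables. In CPM it stood at 308 in each tumour and 47.1 in normal liver (SE of the log2 fold change 0.65, edgeR adjusted p = 0.087). Next were Lars for leucine (2.33, SE 0.62, edgeR adjusted p = 0.105) and Sars for serine (2.003, SE 0.69, edgeR adjusted p = 0.159).

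Nars for asparagine (1.63), Cars for cysteine (1.499), Wars for tryptophan (1.33) and Yars for tyrosine (1.05) had log2 fold changes of over 1. Those of Mars for methionine (0.46), Eprs for glutamate and proline (0.44), Iars for isoleucine (0.31) and Tars for threonine (0.30) were near the median of all genes. The edgeR adjusted p of these 8 genes lay between 0.193 and 0.749. Aars had 4151 and 4058 counts in the tumours, against 2175 and 2462 in the normal tables, and 17.4% shared words. Its log2 fold change was 0.20 under upper quartile scaling and 1.34 without scaling. The genes with the motif in their promoter, Gars, Tars, Iars, Yars and Aars, thus included the one with the highest and the one with the lowest fold change of the 12. Eprs and Sars had a promoter on hand without a match. No promoter of Cars, Lars, Mars, Nars or Wars was on hand, so the motif was not looked for there. Summed over the 12 genes, the level was 2216 CPM in tumour 1 and 2030 CPM in tumour 2. In the tables labelled double heterozygous and wild type it was 1081 and 1058 CPM. These sums were scaled by TMM over the 4 tables, where Gars was at 261 and 264 CPM in the tumours. They are therefore not on the scale of the CPM values of single genes above.

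The 8 other cytosolic tRNA synthetase genes had a median log2 fold change of 1.18, and both tumours were above both normal tables for all 8. None passed by edgeR, with 1 at an unadjusted p under 0.05. Over the 20 cytosolic genes of both lists, 19 were above in both tumours (20 without scaling). For the 17 mitochondrial tRNA synthetase genes the median was -0.44. Both tumours were above both normal tables for 1 of them and below for 9, whereas without scaling they were above for 13 and below for 2. Of all genes tested, 41.1% lay above and 37.5% below with TMM scaling, and 66.8% and 18.7% without scaling. Relative to the median of all genes, the cytosolic genes stood at 0.98 and the mitochondrial genes at -0.63, and without scaling at 0.99 and -0.62. This difference between the lists was not tested. Lars2, the mitochondrial leucine enzyme, fell (222 and 496 counts in the tumours, against 2348 and 3847 in the normal tables, edgeR adjusted p = 0.041), and lost its call without scaling (0.0719).

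Of 18 other stress response genes, 2 rose, against 2.23% of all genes tested, and 0 fell, against 5.19%. Slc7a11, the cystine importer gene, had 2726 and 2485 counts in the tumours, against 0 in both normal tables, and the tumours together were at least 428-fold and 519-fold higher than a floor of 3 counts in the tables labelled double heterozygous and wild type (edgeR adjusted p = 0.021). Vldlr, a lipoprotein receptor gene, had 2839 and 1785 counts in the tumours, against 35 and 39 in the normal tables (log2 fold change 5.14, SE 0.90, edgeR adjusted p = 0.0495). The Vldlr call was lost without the normal table labelled wild type (adjusted p = 0.0535). Genes of this list also went the other way without passing, as for Cth, of cysteine synthesis, with 477 and 61 counts in the tumours, against 3059 and 3394 in the normal tables (edgeR adjusted p = 0.138). Fgf21, a liver stress hormone gene, had 2 and 1 counts in the tumours, against 31 and 32 in the normal tables (edgeR adjusted p = 0.149). The list's median log2 fold change was 1.33, above that of all genes tested.

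**Figure D4:**
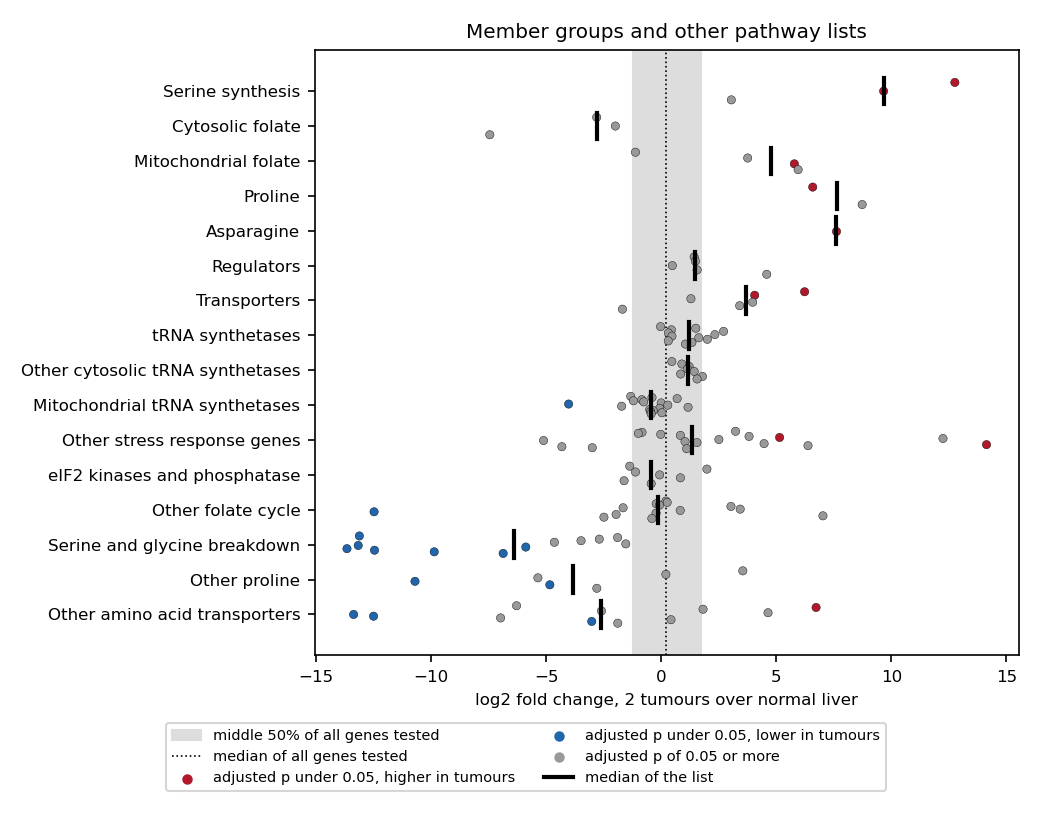
Log2 fold change, 2 tumours over normal liver, of each tested gene in the member groups (upper 8 lines) and in the other pathway lists (lower 8), with list medians as bars and the middle 50% of all genes tested shaded. Genes at an edgeR adjusted p under 0.05 were higher among the members (7) and mostly lower among the other lists (3 higher, 14 lower). Lower calls also outnumbered higher ones over all 14468 genes tested, at 5.19% against 2.23%.

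The tumours were also set against each other. These are comparisons of 1 library with 1 and have no test. At 10 CPM or more in either tumour, 35 of the 36 genes could be compared, and 27 lay within 2-fold. Over 2-fold higher in tumour 1 than in tumour 2 were 5 genes, against 11.5% of the 9226 genes compared, and over 2-fold lower were 3, against 15.9%. The higher ones were Aldh1l1 (log2 ratio 3.80), Aldh1l2 (1.97), Ddit3 (1.70), Chac1 (1.56) and Slc3a2 (1.49). The lower ones were Slc1a5 (-2.43), Shmt1 (-2.36) and Mthfd1 (-2.32). The 7 genes that rose against normal liver had log2 ratios from -0.70 for Phgdh to 0.48 for Aldh18a1, a range that the test itself limits, since its residual spread is that between the tumours. Beside the markers of dividing cells given above, 6 fibroblast and stellate cell markers summed to 5.97 CPM of library size in tumour 1 and 967 CPM in tumour 2, with Lrat at 0 in both, and to 55.1 to 59.8 CPM in normal liver. Their part in the differences between the tumours was not tested.

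**Figure D5:**
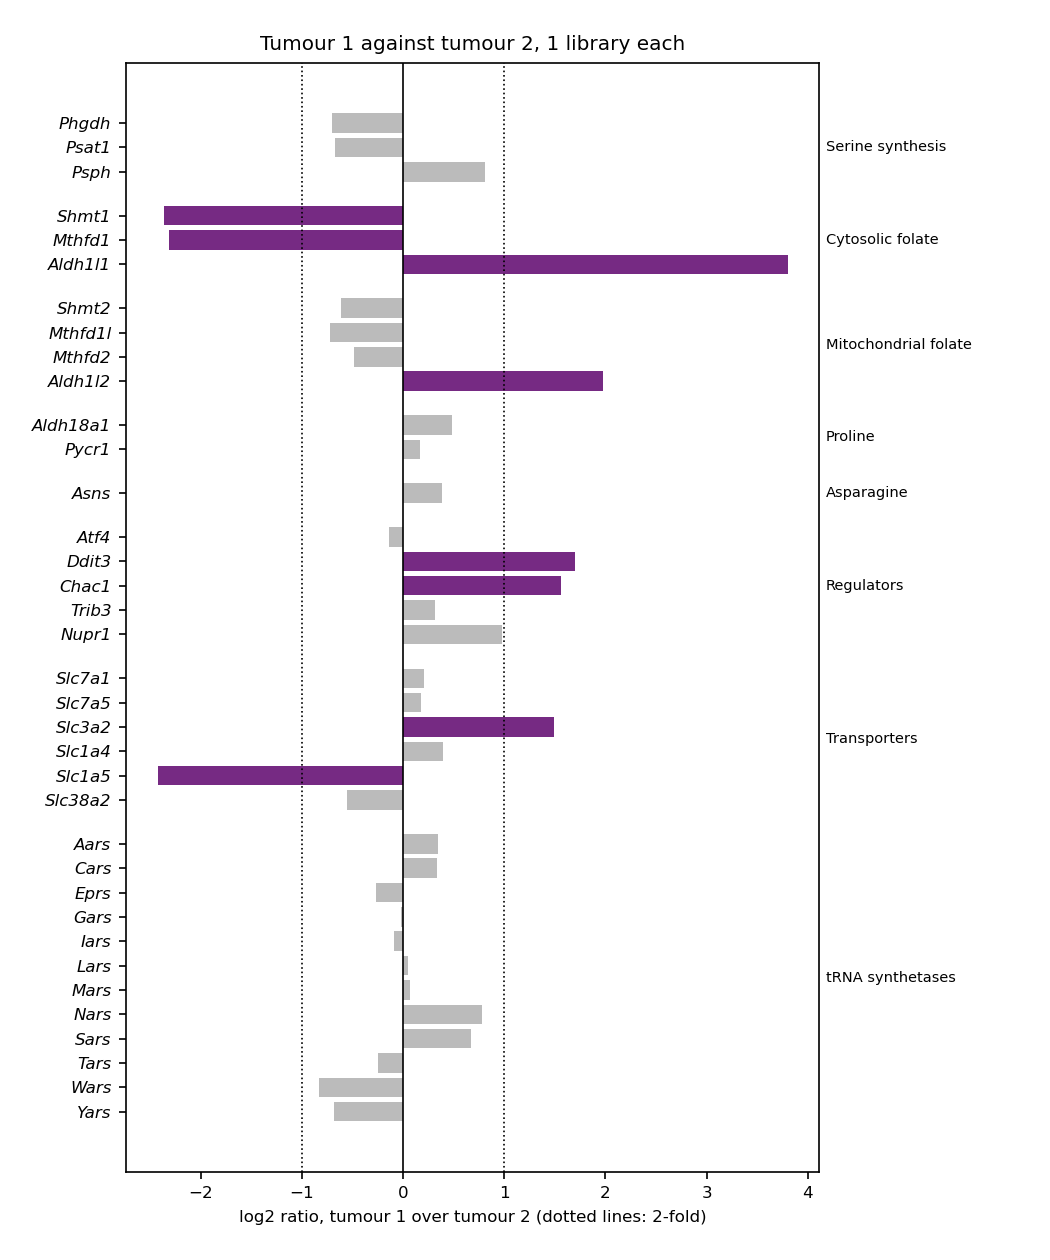
Log2 ratio of tumour 1 over tumour 2 for each of the 36 genes, 1 library each, with ratios past 2-fold (dotted lines) in purple. The purple bars run from -2.43 for Slc1a5 to 3.80 for Aldh1l1, and Phgdh, Psat1, Mthfd2, Aldh18a1, Asns, Slc7a1 and Slc7a5 stay inside the lines.

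Between the normal livers, the table labelled double heterozygous over that labelled wild type, the 20 genes compared all lay within 2-fold, with log2 ratios from -0.35 for Iars, which has 14.96% shared words, to 0.21 for Slc3a2 and Slc38a2. Of the 8294 genes compared, 0.977% were over 2-fold higher and 3.48% over 2-fold lower. Since these tables share counts beyond sampling, the comparison cannot tell whether the genotype alters these genes. Against each normal table alone, in 1 fit of the 4 libraries, the 7 genes passed both times, with edgeR adjusted p from 0.0207 to 0.0452 over the table labelled double heterozygous, where 2.19% of all genes were called higher, and from 0.019 to 0.0392 over that labelled wild type, where 3.07% were. None of the 36 fell, against 5.69% of all genes over the table labelled double heterozygous and 6.62% over that labelled wild type. Slc1a4 passed over the table labelled wild type (edgeR adjusted p = 0.0474) and missed over that labelled double heterozygous (0.0579). The comparisons share the tumours, and the difference between them was not tested.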

How the data were processed

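RNA was sequenced from 2 liver tumours and 2 normal livers of mice. Per the labels' protocols, total RNA was extracted with TRIZOL and libraries were made with an Illumina TruSeq kit. The authors deposited 1 table of whole-number read counts by gene symbol for each library, not normalized. The submitters' processing notes name the build mm9 and, with neither role nor order, TopHat2 2.0.10, HTSeq, Trimmomatic, FastQC and DESeq2. Whether counting used strand is not given in the sources used here. Each table has 5 lines that name no gene, and these, which hold 58.8 to 59.2% of the summed values in the tumour tables and 62.3 to 76.0% in the normal tables, entered neither library sizes nor tests. Alignments that were not unique made up 42.3 to 45.6% and 30.7 to 51.5%, so genes that share sequence with a copy are undercounted by an amount that can differ between libraries.

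Tests used edgeR 4.0.16 in R 4.3.3 (filterByExpr with a minimum count of 10, TMM scaling, glmQLFit, glmQLFTest, Benjamini-Hochberg adjustment over all 14468 genes tested), with tumours 1 and 2 against the rounded mean of the normal tables. This assumes that normal liver varies like the tumours. The SE of a log2 fold change is its size divided by the square root of F. Comparisons of 1 library with 1 added a prior count of 2, scaled by library size, to the counts before they were turned into TMM-scaled CPM. Ratios within a library had an offset of 0.5 counts. Counts of 0 were read against a floor of 3 counts, and 95% intervals are exact conditional binomial intervals. Floors and intervals cover counting error only. The fit was also run on simulated counts with 200 changed genes, drawn for every library from the tumour means. Their dispersion was set below the common dispersion of 0.44 fitted to these data. That run therefore does not show how the fit performs at the spread seen here. Alternatives were other scalings, no filter on low counts, DESeq2 1.42.0, both normal tables as separate libraries, each normal table or tumour left out, and the removal of genes with shared sequence.

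Shared sequence is the percentage of a gene's 31-base words, 1 in 16 sampled, that occur in another gene of GENCODE M21 (GRCm38), which also gave exon lengths. It matched 89.5% of symbols and all 36 members, 6 of which are over 10%. No coordinates of the counted genes are given because the builds differ. The members and lists were chosen with earlier results of these data known. All members are named; other genes are named if they passed the test, at most the 5 of largest fold change per list and direction, and Gldc, Tyms, Slc7a2, Cth and Fgf21 were picked after their values were seen.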

Additional observations from a re-analysis of the deposited data

How the results depend on the processing

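The 7 genes that rose kept their call under each alternative with a test in which they could be fitted, with adjusted p of at most 0.049; Phgdh drops out where genes with shared sequence are removed. Against 7 members higher and 0 lower, both normal tables as separate libraries gave 20 and 3, DESeq2 16 and 1, and no filter 11 and 1, and no scaling gave 11 higher. For all genes, 322 higher and 751 lower became 3058 and 3157 with separate normal tables, 1728 and 1719 with DESeq2, 903 and 1383 without a filter, and 635 and 472 without scaling. For the other pathway genes, 3 higher and 14 lower became 17 and 32 with separate normal tables and 11 and 23 with DESeq2, and 8 were higher without a filter and 8 without scaling. Separate normal tables add a residual degree of freedom from tables that share counts; the other causes were not tested. Without the normal table labelled double heterozygous or that labelled wild type, 7 members were higher in both fits, and all genes called ranged from 278 to 422 higher and from 695 to 838 lower. Members below both normal tables numbered 5, against 37.5% of all genes tested, and 2 without scaling, against 18.7%. Leaving out scaling moved the median log2 fold change of all genes by 1.37, upper quartile scaling by 0.23 and DESeq2 size factors by -0.07, so changes are best read against that median. The sign turned for Aars under upper quartile scaling (0.20), without scaling (1.34) and without a filter (0.027), and for Shmt2 without scaling (0.25). With a single tumour there is no test, and no called member changed sign, with Slc7a5 at 3.92 and 4.12 and Phgdh at 9.03 and 8.14 on the log2 scale without tumour 1 and without tumour 2. Fitted values of genes near 0 in normal liver depend on the prior count. For Phgdh and Pycr1 the normal mean of 0 and 1 counts was rounded to 0, and their log2 fold changes were 12.76 and 8.73. Over the table labelled wild type alone, with 1 count each, they were 9.11 and 5.08. No paired analysis was possible because the labels link no tumour to a normal liver of the same animal.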

Other observations

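The kinases and phosphatase genes around eIF2, which set the translation of ATF4, had a median log2 fold change of -0.44 over 7 genes (0.94 without scaling), and none passed by edgeR, with 1 higher and 1 lower at an unadjusted p under 0.05. Eif2ak2, which encodes the kinase PKR that senses double-stranded RNA, had 1063 and 1185 counts in the tumours, against 146 and 167 in the normal tables (log2 fold change 1.98, edgeR adjusted p = 0.13). Ppp1r15b, the constitutive partner of the eIF2 phosphatase, had 2352 and 2923 counts in the tumours, against 4405 and 4422 in the normal tables (-1.62, adjusted p = 0.157). The amino acid sensor gene Eif2ak4 (GCN2) had 374 and 472 counts in the tumours, against 202 and 283 in the normal tables, and a log2 fold change of -0.07. These genes were picked after their values were seen.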
